A study of Mus musculus with 2 samples.

Results

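The 41 genes described here encode the route from glucose to pyruvate, the exchange of lactate, and the entry of pyruvate into the tricarboxylic acid (TCA) cycle, in the brain of 1 mouse. They were taken by gene symbol, with no cut on measured values, from a list chosen with earlier results of these data known. Of 43346 gene rows in each deposited gene table, the 41 whose identifier maps to a listed symbol were kept. All 41 were found. Of these, 21 act in glucose entry, glycolysis and lactate exchange and 20 in mitochondrial pyruvate use and the TCA cycle. The 20 are called mitochondrial here, although the enzyme of 1 of them, Mdh1, is cytosolic. Poly(A) RNA from the brain of 1 male C57BL/6J mouse, an adult of 10 weeks from this common inbred strain, was sequenced in 2 libraries, called replicates 1 and 2. The labels call them technical replicates of biological replicate 1 and place replicate 2 after the publication they cite. No group carries a treatment or an engineered allele, so the only comparison is between libraries of 1 mouse, with no replicate check and no difference between animals in it. Values are TPM, a level scaled by transcript length to the same total in each library. Depth was 18302506 gene counts in replicate 1 and 17828479 in replicate 2, and no member was at 0 counts in either.

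Glycolysis splits glucose into pyruvate in the cytosol with a small yield of ATP, and lactate dehydrogenase interconverts pyruvate and lactate. Pyruvate enters mitochondria through a carrier, is turned into acetyl-CoA by the pyruvate dehydrogenase complex, and is oxidised in the TCA cycle. In brain, astrocytes are known for glycolysis and lactate release and neurons for oxidation, lactate passes between cells through monocarboxylate transporters, and many steps have paralogs that differ by cell type.

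Replicate 2 held far more RNA of the cytosolic route than replicate 1, and the mitochondrial route differed less. The 21 glycolysis and lactate genes summed to 1164 TPM in replicate 1 and 11074 TPM in replicate 2, and the 20 mitochondrial genes to 2005 and 3574 TPM. Mitochondrially encoded RNAs and their nuclear copies took 63.2% and 29.1% of all TPM. Of the remainder, the cytosolic genes held 0.316% and 1.56%, and the mitochondrial-route genes 0.544% and 0.504%. With mitochondrial RNA set aside, the cytosolic share was still larger in replicate 2 and the mitochondrial-route share was not. The mitochondrial-route values include the cytosolic Mdh1, at 296.13 and 810.40 TPM.

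A call required at least 2-fold and, in a two-sided exact binomial test of counts, a p under 0.05 after Benjamini-Hochberg adjustment, with library sizes scaled by TMM, a method that centres most genes on no change. All 41 had an adjusted p under 0.05 in that test, so the 2-fold threshold set the calls. Of the 41, 22 were called higher in replicate 2, 5 lower and 14 neither. Over all 16320 genes tested, 58.5% were called, 34.5% higher and 24% lower. Among the cytosolic genes 14 of 21 were higher and 2 lower, and among the mitochondrial genes 8 of 20 were higher and 3 lower. With library totals in place of TMM all log2 count ratios rise by 0.61, and the counts for the 41 become 28 higher and 1 lower, against 43.6% and 7.9% of all genes. The test compares these libraries and covers counting error only.

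**Figure D1:**
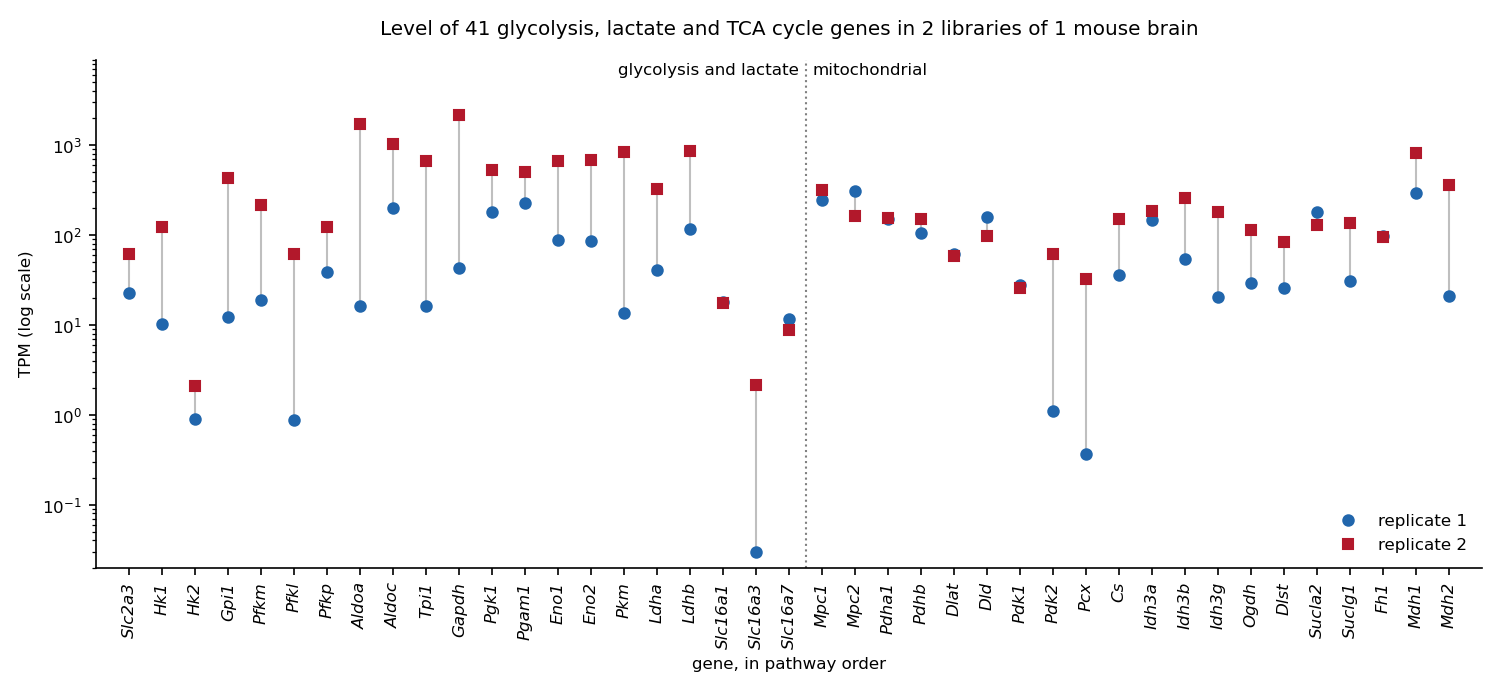
TPM (log scale) of the 41 genes in pathway order from glucose entry to malate dehydrogenase, with 1 circle for replicate 1 and 1 square for replicate 2 of the same mouse, joined by a grey line. TPM was higher in replicate 2 for 33 genes and lower for 8, and the widest gaps are those of Aldoa, Pcx and Slc16a3, the last from 1 count in replicate 1.

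Glucose entry is represented by Slc2a3, the neuronal glucose transporter, and phosphorylation by the hexokinases. Slc2a3 measured 22.53 TPM in replicate 1 and 61.49 in replicate 2. Slc2a1, the transporter of the blood-brain barrier and of glia, which is outside the 41, measured 4.31 and 62.13 TPM and was called higher. Hk1, the main brain hexokinase, which traps glucose as glucose-6-phosphate, measured 10.19 and 123.08 TPM, a 12.1-fold difference with an exact 95% counting interval of 11.04 to 13.2. Hk2, the hexokinase of muscle and growing cells, stayed low at 0.90 and 2.12 TPM. Hk1 was called higher in replicate 2. Slc2a3 and Hk2 were not called with TMM and were called higher with library totals. Hk1 held 91.9% of the TPM of the hexokinase pair in replicate 1 and 98.3% in replicate 2, so it led in both libraries. For Hk2, 77.0% and 62.3% of TPM was assigned to a processed transcript of 594 bases, a type that is not annotated as coding.

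Gpi1, which isomerises glucose-6-phosphate, measured 12.27 TPM in replicate 1 and 428.65 in replicate 2, a 34.9-fold difference (31.7 to 38.6). Phosphofructokinase, the committed step of glycolysis, is built from 3 paralogous subunits that differed from each other in ratio. The muscle-type Pfkm measured 18.84 and 218.99 TPM, the liver-type Pfkl 0.88 and 61.30 TPM, and the platelet-type Pfkp 39.11 and 123.43 TPM. Pfkm and Pfkl were called higher, and Pfkp was not called with TMM but was with library totals. Pfkp made up 66.5% of the 3 subunits in replicate 1 and 30.6% in replicate 2. Pfkm made up 32.0% and 54.2%, so the leading subunit depended on the library. Pfkl made up 1.496% and 15.2%.

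Aldolase splits fructose-1,6-bisphosphate, and its paralogs gave the widest difference of the glycolytic route. Aldoa (ENSMUSG00000030695.9, chr7:126795234-126800751 in GRCm38, minus strand), the broadly expressed form, measured 16.40 TPM in replicate 1 and 1735.86 in replicate 2, from 295 and 24232 counts, a 106-fold difference (94.4 to 119). Aldoc, the brain form that marks astrocytes and Purkinje cells, measured 199.28 and 1021.86 TPM, a 5.13-fold difference. Both were called higher, but Aldoc held 92.4% of the pair in replicate 1 and 37.1% in replicate 2. Among all genes ordered by TPM, Aldoa stood at place 4157 in replicate 1 and place 32 in replicate 2.

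In the 3-carbon stage of glycolysis TPM was higher in replicate 2 at every step, by unequal amounts. Tpi1, which interconverts the triose phosphates, measured 16.30 and 673.79 TPM, a 41.3-fold difference. Gapdh (ENSMUSG00000057666.14, chr6:125161715-125166467, minus strand), which makes the first NADH and is a common reference gene, measured 43.36 and 2172.08 TPM, a 50.1-fold difference (44.6 to 56.5). Both were called higher, and Gapdh moved from place 1904 to place 27 among all genes. Pgk1, the first ATP-forming step, measured 179.65 and 531.92 TPM, and Pgam1, the next mutase, 228.51 and 505.25 TPM. Neither of these was called different, and Pgam1 was not called with library totals either. Gapdh was thus below Pgam1 in replicate 1 and above it in replicate 2.

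Eno1 and the neuronal Eno2, the enolases, had like levels and ratios. Eno1 measured 89.17 TPM in replicate 1 and 668.82 in replicate 2, and Eno2 measured 85.18 and 688.96 TPM. Both were called higher, with TPM ratios of 7.5 and 8.09, and Eno1 held 51.1% and 49.3% of the pair. In counts, which are not scaled by length, Eno1 had 696 and 13225 and Eno2 2701 and 15583. On that scale Eno2 exceeded Eno1 in both libraries. The effective length used for Eno1 was 543 bases in replicate 1 and 1824 in replicate 2.

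Pkm (ENSMUSG00000032294.12, chr9:59656368-59679375) encodes the last glycolytic enzyme, pyruvate kinase, in forms M1 and M2 that differ by 1 of a pair of mutually exclusive exons. M1 is the form of adult neurons and muscle, and M2 that of proliferating cells and astrocytes. The exons are printed because the transcript share below rests on them. They lie on the plus strand of chromosome 9 in GRCm38, M1 at chr9:59675029-59675195 and M2 at chr9:59675568-59675734, each is exon 9 of its transcript and 167 bases long, and 64 bases, in capitals, differ between them.
Pkm M1 exon: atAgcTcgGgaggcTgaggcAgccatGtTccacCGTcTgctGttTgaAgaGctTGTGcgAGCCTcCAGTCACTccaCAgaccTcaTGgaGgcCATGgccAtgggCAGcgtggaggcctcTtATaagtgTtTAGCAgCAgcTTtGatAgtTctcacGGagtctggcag
Pkm M2 exon: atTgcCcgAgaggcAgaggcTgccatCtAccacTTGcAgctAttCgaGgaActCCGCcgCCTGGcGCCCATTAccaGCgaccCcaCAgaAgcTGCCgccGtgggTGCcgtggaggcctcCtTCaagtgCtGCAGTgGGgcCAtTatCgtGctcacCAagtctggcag
The exons were 61.7% identical position by position, and M1 had a GC content of 56.3% against 62.9% for M2. Pkm measured 13.46 TPM in replicate 1 and 837.76 in replicate 2, from 435 and 20388 counts, a 62.2-fold difference (56.6 to 68.6), and was called higher. The M1 transcript Pkm-202 was given 100% of Pkm in replicate 1 and 89.77% in replicate 2, a mean of 94.9% ± 7.23 (SD, n = 2 libraries). The posterior mean shares, a smoothed estimate in the same tables, were 82.18% and 89.71%. M1 led in both libraries by either estimate, and the order of the libraries turned with the estimate, so no difference in M1 share was shown.

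Lactate dehydrogenase had close paralog shares in the libraries. Ldha, the subunit that favours lactate formation, measured 40.91 TPM in replicate 1 and 329.34 in replicate 2. Ldhb, the subunit of oxidative cells, measured 117.05 and 860.92 TPM. Both were called higher, with TPM ratios of 8.05 and 7.36, and Ldhb held 74.1% and 72.3% of the pair. In counts the balance was narrower, with Ldha at 821 and 4983 and Ldhb at 1017 and 10412.

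Of the lactate transporters, Slc16a1 and Slc16a7 did not follow the enzymes, and Slc16a3, at a very low level, was called higher. Slc16a1 (MCT1), of endothelial cells, oligodendrocytes and astrocytes, measured 17.93 and 17.58 TPM. Slc16a7 (MCT2), the neuronal form, measured 11.64 and 8.76 TPM. In TMM-scaled counts both were called lower in replicate 2, Slc16a1 just past the threshold with a log2 ratio of -1.01 and Slc16a7 with -1.47. With library totals neither was called. Slc16a3 (MCT4), a form of glycolytic cells such as astrocytes, measured 0.03 TPM from 1 count in replicate 1 and 2.17 TPM from 49 counts in replicate 2. Its 72.3-fold ratio has a counting interval of 12.4 to 2915, so only its direction was resolved. Slc16a1 led the 3 transporters with 60.6% and 61.7% of their TPM.

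At the mitochondrial entrance the gene-level TPM of the carrier subunits moved apart. Mpc1 measured 244.34 TPM in replicate 1 and 318.11 in replicate 2, and Mpc2 310.10 and 164.77 TPM. Mpc2 was called lower and Mpc1 was not called. In TPM, Mpc1 made up 44.1% of the pair in replicate 1 and 65.9% in replicate 2. In counts, Mpc1 had 2573 and 2314 and Mpc2 1681 and 1171, so Mpc1 exceeded Mpc2 in both libraries. The effective length used for Mpc2 was 377 bases in replicate 1 and 656 in replicate 2. In replicate 1 the carrier was the most abundant of the 23 steps at 554 TPM, and in replicate 2 it was the 11th at 483 TPM, while aldolase led at 2758 TPM.

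The pyruvate dehydrogenase complex was among the steadiest steps, with a summed 480 TPM in replicate 1 and 463 in replicate 2. Pdha1 and Pdhb, the E1 subunits, measured 152.57 and 155.66 TPM, and 105.76 and 150.02 TPM. Dlat, the E2 core, measured 61.71 and 58.64 TPM, and Dld (chr12:31331277-31351453, minus strand), the E3 subunit shared with 2-oxoglutarate dehydrogenase, 160.17 and 98.90 TPM. Dld was called lower with either scaling, the only one of the 41 of which that held, and the other subunits were not called. The highest subunit exceeded the lowest 2.60-fold in replicate 1 and 2.66-fold in replicate 2.

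Of the kinases that switch this complex off, Pdk2 was called higher and Pdk1 was not called, and pyruvate carboxylase was called higher. Pdk1 measured 27.66 and 25.48 TPM. Pdk2, the widespread isoform, measured 1.11 TPM from 33 counts in replicate 1 and 61.19 TPM from 1309 counts in replicate 2, a 55.1-fold difference (39.1 to 80.4). Pdk1 thus held 96.1% of the pair in replicate 1 and 29.4% in replicate 2. Pcx, pyruvate carboxylase (chr19:4510472-4621752, plus strand), which refills the cycle and is an astrocyte enzyme in brain, measured 0.37 TPM from 21 counts and 32.42 TPM from 1392 counts, an 87.6-fold difference (57.1 to 142). The share of G and C in their transcripts was 56.9% for Pdk2 and 57.7% for Pcx. Over all genes of 55 to 60% whose mean TPM reached 1, the median log2 TPM ratio was 3.03. The subunits of the complex, whose sum was nearly level, lay at 40.6% to 47.3%. Over all genes of 40 to 45% and of 45 to 50% that median was -0.31 and 0.41. What set Pdk2 and Pcx apart from the complex was not tested.

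In the first span of the TCA cycle the genes were called higher or not called. Cs, citrate synthase, measured 35.94 and 149.81 TPM and was called higher. The subunits of NAD-dependent isocitrate dehydrogenase measured 145.60 and 184.25 TPM for the catalytic Idh3a, 54.27 and 260.23 for Idh3b, and 20.29 and 182.34 for Idh3g. Idh3b and Idh3g were called higher and Idh3a was not, so the gap between the highest and the lowest subunit was 7.18-fold in replicate 1 and 1.43-fold in replicate 2. Ogdh, the E1 of 2-oxoglutarate dehydrogenase, measured 29.60 and 112.56 TPM and was called higher. Dlst, its E2, measured 25.67 and 84.56 TPM and was not called with TMM but was called higher with library totals. With Dld counted as its E3, the subunits spread over 6.24-fold in replicate 1 and 1.33-fold in replicate 2. The pyruvate dehydrogenase subunits kept their spread, while those of these dehydrogenases lay closer together in replicate 2.

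In the second span, Sucla2, the ATP-forming beta subunit of succinyl-CoA ligase, measured 182.14 TPM in replicate 1 and 131.21 in replicate 2 and was called lower with TMM. Suclg1, the alpha subunit, measured 31.09 and 136.21 TPM and was called higher. Fh1, fumarase, was not called at 98.79 and 94.17 TPM. Mdh1, the cytosolic malate dehydrogenase of the malate-aspartate shuttle, measured 296.13 and 810.40 TPM and was not called with TMM but was called higher with library totals. Mdh2, the mitochondrial form, measured 21.28 and 362.83 TPM, a 17.1-fold difference (15.1 to 19.3), and was called higher. Mdh1 held 93.3% of that pair in replicate 1 and 69.1% in replicate 2.

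Which paralog led often differed between the libraries. Of 11 steps with 2 or 3 measured paralogs or subunits, the same gene led in both libraries at 4, hexokinase, lactate dehydrogenase, the monocarboxylate transporters and malate dehydrogenase, and a different gene led at 7. In counts without length scaling the same gene led at 8 steps. Of the 2 most abundant genes of each step, the one with the higher share of G and C in its transcripts had the higher ratio at 9 of 11 steps. Among the 9 was the pair Slc16a1 and Slc16a7, whose shares differed by only 0.042 percentage points. The 9 also include Mpc1 at 44.99% and Mpc2 at 43.36%, where the value for Mpc2 depends on transcript assignment. The rate over other pairs of genes was not computed.

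**Figure D2:**
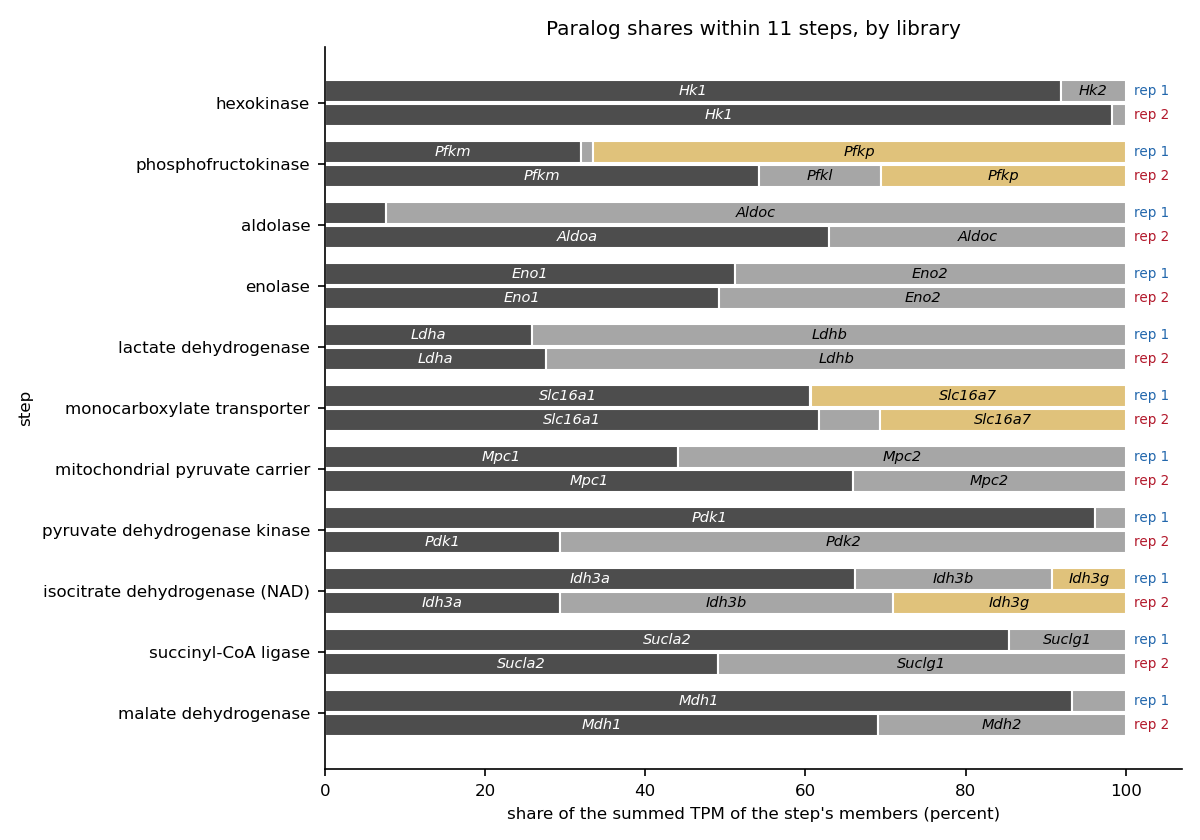
Share (percent) of the summed TPM of each step held by each of its genes, with the upper bar for replicate 1 and the lower bar for replicate 2 at each of 11 steps; genes under 8% are drawn without a name. The leading gene differed at 7 steps, most widely at pyruvate dehydrogenase kinase, where Pdk1 held 96.1% and 29.4%, and at aldolase, where Aldoc held 92.4% and 37.1%.

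The ratio between libraries moved with the GC content of the genes, the share of G and C in their transcripts. The members of lowest and highest GC content among those whose mean TPM reaches 10 are Dld at 40.6% and Pcx at 57.7%, and the kinase pair Pdk1 at 46.1% and Pdk2 at 56.9% differs most among such leading pairs. For each, the 90-base coding stretch of median GC content is shown from the transcript on top in replicate 2, with G and C in capitals.
Dld coding bases 1171 to 1260: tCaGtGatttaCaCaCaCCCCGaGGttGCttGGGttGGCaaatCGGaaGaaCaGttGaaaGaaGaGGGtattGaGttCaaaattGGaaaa
Pcx coding bases 811 to 900: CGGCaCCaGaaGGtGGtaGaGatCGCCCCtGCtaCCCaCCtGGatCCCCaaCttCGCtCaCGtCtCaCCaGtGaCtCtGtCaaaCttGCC
Pdk1 coding bases 1081 to 1170: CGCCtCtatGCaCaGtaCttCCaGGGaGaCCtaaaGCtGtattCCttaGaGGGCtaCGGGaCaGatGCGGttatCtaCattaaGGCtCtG
Pdk2 coding bases 811 to 900: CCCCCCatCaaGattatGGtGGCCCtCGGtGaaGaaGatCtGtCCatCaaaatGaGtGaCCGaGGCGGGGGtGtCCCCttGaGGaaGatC
These stretches hold 42.2%, 58.9%, 50% and 55.6% G and C, and the whole coding sequences 42.8%, 57.8%, 51.5% and 56.8%. Pdk1 is less poor in G and C in its coding part than over its transcripts.

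The 7 members of 40 to 45% GC content had a median log2 TPM ratio of -0.37, with 5 called lower and none higher. The 10 members of 45 to 50% had a median of 0.61 and no call. The 13 members of 50 to 55% had a median of 2.35 with 11 called higher, and the 11 members of 55 to 60% had a median of 4.61 with all 11 called higher. No member under 50% was called higher and none above 45% was called lower with TMM. This split depends partly on transcript assignment, because GC content was weighted by transcript TPM in these same libraries. Mpc2, called lower, lay at 43.36%, with 284.29 TPM in replicate 1 on a processed transcript of 39.96% GC content. The coding transcript of Mpc2 on top in replicate 2 has a GC content of 53.27%. Over all genes whose mean TPM reached 1, the medians of the same classes were -0.31, 0.41, 1.60 and 3.03. The share of all genes called in each class was not computed, so the call counts of the members have no background. Across the 41 genes Spearman's rho between GC content and log2 TPM ratio was 0.87, and across 14177 genes it was 0.89, over genes that share these same libraries and are not independent. The part of GC content in the differences was not tested.

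**Figure D3:**
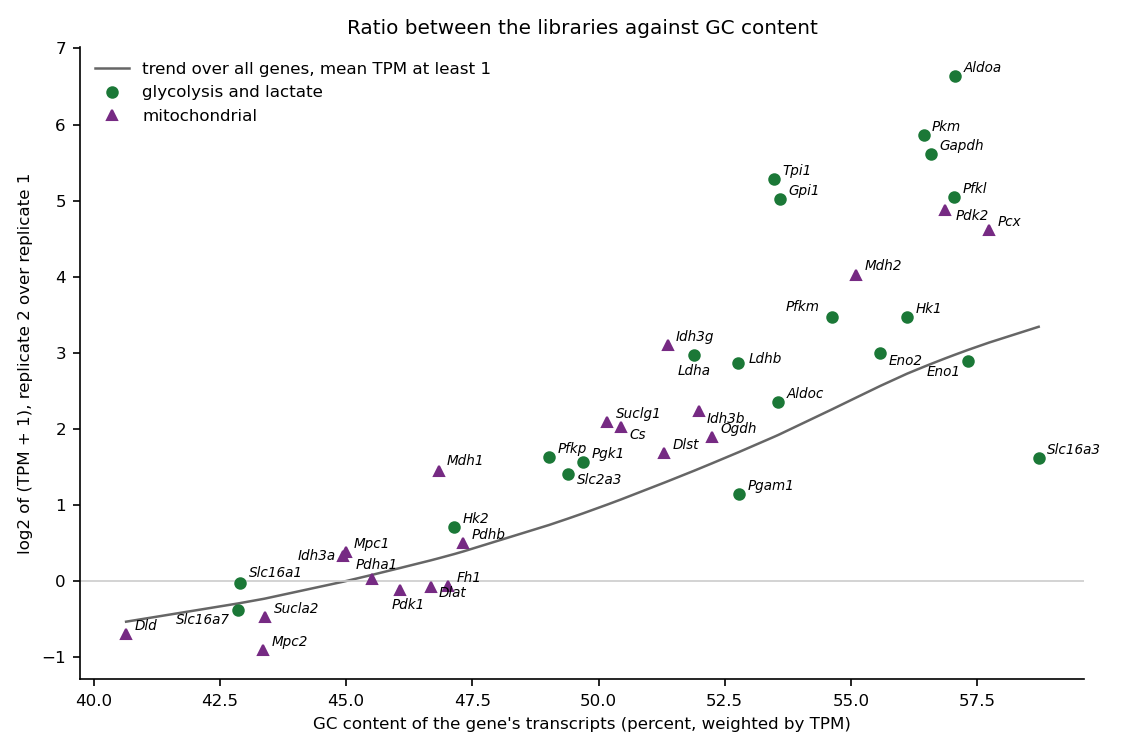
Log2 of (TPM + 1) in replicate 2 over replicate 1 against GC content (percent), with 1 point per gene and the line giving the smooth trend over all genes whose mean TPM reached 1. Ratios climb with GC content, 30 of the 41 genes lie above the line, and Aldoa lies farthest above it.

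The cytosolic genes had a median GC content of 53.6% and the mitochondrial genes of 47.2%, and their median log2 TPM ratios were 2.89 and 0.97, against 0.88 for all genes of that level. After the smooth trend on GC content over all genes was subtracted, these medians were 0.74 and 0.36. Of the 41 genes 30 lay above the trend and 15 by at least 1 on the log2 scale, against 50.1% and 10.3% of all genes. Among genes whose mean TPM reached 100 the shares of all genes were 54.5% and 21.4%, and of the 24 such members 18 and 11 lay there. The farthest above were Aldoa by 3.67, Tpi1 by 3.39, Gpi1 by 3.09, Pkm by 3.04 and Gapdh by 2.76. Slc16a3, with 1 count in replicate 1, was the only member at least 1 below, against 7.43% of all genes. At 0.03 and 2.17 TPM the pseudocount of 1 held its log2 TPM ratio to 1.62, under a trend of 3.34. In counts with the GC trend removed, Slc16a3 lay above the trend by 0.493 on the log2 scale and was not called. Its side of the trend thus turned with the scale. In counts with the GC trend removed, 15 members were called higher and Pgam1 lower, against 10.4% and 9.24% of all genes. The 15 were Hk2, Gpi1, Pfkl, Pfkp, Aldoa, Tpi1, Gapdh, Pkm, Ldha, Ldhb, Pdk2, Pcx, Idh3g, Mdh1 and Mdh2.

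Transcript assignment differed between the libraries as well. Of 34 members with at least 2 transcripts in the tables, the top transcript differed in 16, and in 15 of these the one on top in replicate 1 was the shorter. The top transcript differed in 34.5% of 8284 such genes with a TPM of at least 1 in both libraries. Some of the lengths were close, with Pcx at 4125 and 4148 bases and Pfkm at 2816 and 2880. Pcx had 21 counts in replicate 1, and by posterior mean shares Pcx-201 led in both libraries, at 51.83% and 95.76%. A transcript of a type other than protein-coding was on top in replicate 1 in 6 of the 16 members, Pfkp, Aldoc, Gapdh, Mpc2, Idh3g and Mdh2, and in none of the 16 in replicate 2. How often the shorter or a non-coding transcript was on top over all genes was not computed, so these counts have no background. For Aldoc, the processed transcript Aldoc-206 of 706 bases had 83.05% in replicate 1 and the coding Aldoc-202 of 1700 bases 84.81% in replicate 2. For Mdh2, a nonsense-mediated decay transcript of 1112 bases had 96.67% in replicate 1 and a coding one of 1456 bases 75.68% in replicate 2.

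Gapdh was the plainest case. In replicate 1 the retained-intron transcript Gapdh-206 had 39.27%, Gapdh-207 33.67%, Gapdh-208 15.35%, Gapdh-201 7.55% and Gapdh-203 2.44%. In replicate 2 the full-length coding Gapdh-203 had 98.57%. The effective length of Gapdh, the length over which its fragments are spread, was therefore 455.83 bases in replicate 1 and 1229.29 in replicate 2. Its counts were 284 and 28945, a 102-fold ratio, and its TPM differed 50.1-fold. The replicate 1 shares rest on 284 counts spread over these transcripts.

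**Figure D4:**
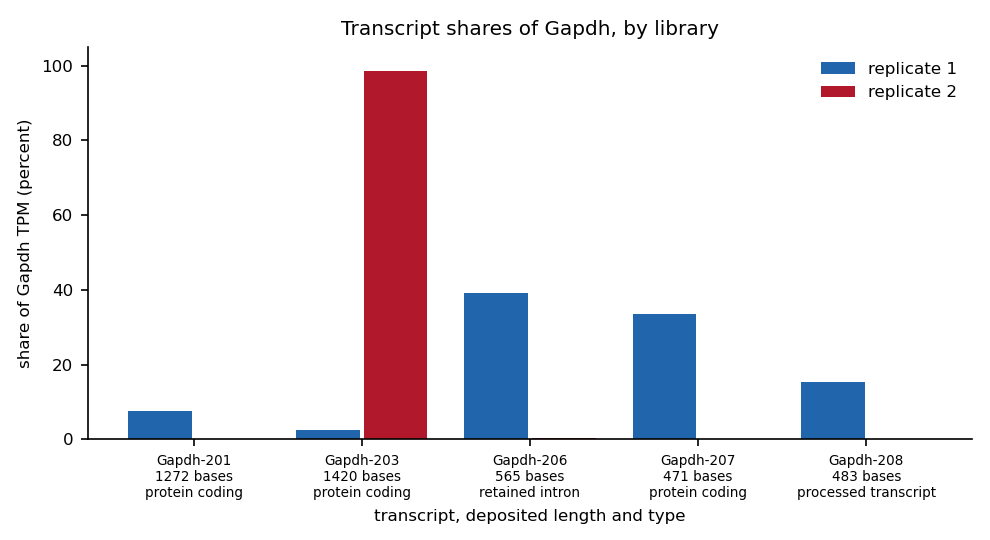
Share of Gapdh TPM (percent) by transcript, with 1 bar for each library and the deposited length and annotated type below each name, for transcripts with at least 1% in a library. Gapdh-203 holds 98.57% in replicate 2, and in replicate 1 most of Gapdh falls on transcripts of 471 to 565 bases.

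Effective length was at least 1.5 times as long in replicate 2 in 7 of the 41 members, Aldoc, Gapdh, Eno1, Ldhb, Mpc2, Ogdh and Fh1, and as much shorter in none, against 7.56% and 2.09% of 11369 genes with a TPM of at least 1 in both libraries. For Fh1 the counts were 910 and 1664 while TPM was 98.79 and 94.17, so the direction turned with the scale. Mpc1, Pdha1 and Idh3a turned the other way, with fewer counts and a higher TPM in replicate 2. The effective length of Pdha1, 2645 and 2647 bases, and of Idh3a, 2220 and 2216, was nearly the same in both libraries. That of Mpc1 was 733 and 671 bases. None of these 4 genes was called with TMM or with library totals.

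**Figure D5:**
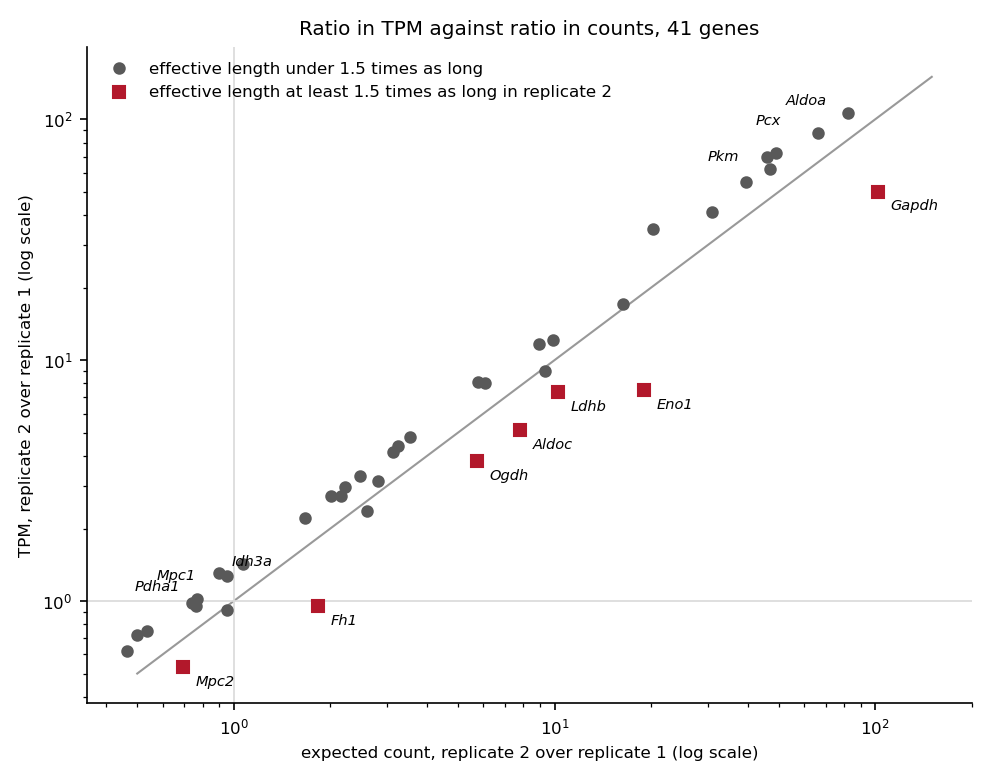
TPM in replicate 2 over replicate 1 against the same ratio in expected counts (both log scales), 1 point per gene, with the line of equality. The 7 genes drawn as squares, whose effective length was at least 1.5 times as long in replicate 2, lie below the line, Gapdh at 102-fold in counts and 50.1-fold in TPM.

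The authors' tables give lower and upper bounds for TPM, with a level not given in the sources used here. The bounds of the libraries did not overlap for 35 members, 31 higher and 4 lower in replicate 2, against 59.5% and 15% of 14229 genes whose mean TPM reached 1. They overlapped for Hk2, Slc16a1, Pdha1, Dlat, Pdk1 and Fh1. The bounds surround a posterior mean and held the TPM itself for 26 members in replicate 1 and 10 in replicate 2.

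Near-identical copies can share reads with 10 of the members. Gapdh has 114 genes with at least 95% identity over 200 bases, 113 of them annotated as pseudogenes, and they summed to 0.78 and 126.33 TPM. The copies of Gapdh, Pgam1 and Mpc1 exceeded 5% of the sum with their member in a library, at 5.50% for Gapdh and 10.98% for Pgam1 in replicate 2, and at 11.6% and 23.2% for Mpc1. Levels of these 3 genes are uncertain by that much. Exons of Pfkp overlap those of the opposite-strand Pitrm1 over 748 bases, and those of Pdha1 overlap Map3k15 over 603 bases. Whether counting used strand was not given in the sources used here.

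Other genes of the same and neighbouring pathways, 62 in all, were measured as a second list, with 30 called higher, 5 lower and 17 not called among the 52 with enough counts, against 34.5% and 24% of all genes tested. Bsg, which carries lactate transporters to the membrane, measured 128.18 TPM in replicate 1 and 629.39 in replicate 2 and was called higher. Emb, listed in the same role, measured 33.58 and 24.78 TPM and was called lower with TMM. The transaminases Got1 and Got2 of the malate-aspartate shuttle measured 31.73 and 324.64 TPM, and 18.18 and 158.89 TPM, and both were called higher. Of succinate dehydrogenase, Sdhb at 35.30 and 215.42 TPM and Sdhc at 23.34 and 94.02 TPM were called higher. Sdha at 145.28 and 214.70 TPM and Sdhd at 83.44 and 169.65 TPM were not called. Pdp1, the phosphatase that reverses Pdk1 and Pdk2, was called lower at 184.65 and 138.31 TPM. Of the tissue-restricted paralogs, Pklr and Pdha2 were listed at 0 in both libraries, Gapdhs, Pgk2 and Ldhc reached at most 0.23 TPM, and Hk3 at most 0.88 TPM. Pgam2 and Eno3, forms of muscle, measured 0 and 10.03 TPM and 1.15 and 7.92 TPM.

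The sample carried brain markers in both libraries. The 4 neuron markers summed to 4001 and 3773 TPM, the 4 astrocyte markers to 699 and 759, and the 4 oligodendrocyte markers to 1252 and 1913, with none at 0. Within the neuron and astrocyte lists the markers went both ways: 2 neuron markers were called higher and 1 lower, and 1 astrocyte marker higher and 2 lower. Snap25 measured 3457.02 and 2763.92 TPM, and Tubb3 25.69 and 308.68 TPM. The 4 microglia markers summed to 62.7 and 114 TPM and endothelial markers to 16.5 and 86.0 TPM. Erythroid markers summed to 48.9 and 1069 TPM, with 1 of 4 at 0 in replicate 1, skeletal muscle markers to 0.31 and 11.5 TPM, with 2 of 4 at 0 in replicate 1, and liver markers to 72.2 and 863 TPM, nearly all Ttr, which choroid plexus also makes. All 4 erythroid markers and 3 of the 4 endothelial ones were called higher. Of the oligodendrocyte and microglia markers 2 each were called higher, and 1 microglia marker lower. Of the skeletal muscle markers 1 was called higher, and of the liver markers 3. Over all genes tested 34.5% were called higher, a share per gene that gives no background for whole lists. Cldn5, at 0.40 TPM from 7 counts and 48.64 TPM, made up most of the endothelial sum in replicate 2. The part of these cell types in the differences was not tested. In bulk tissue, a change in the number of cells of a type and in RNA per cell cannot be told apart.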

How the data were processed

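Gene and transcript tables of 2 libraries were used. The authors deposited expected counts (estimates that need not be whole), TPM, FPKM (not used here), the percent of a gene's expression per transcript, posterior means of these, and lower and upper TPM bounds (a signal that is never negative), per the file headers. The build is mm10, per the labels, and the quantifier was not given in the sources used here. The 43346 gene rows were kept, and 26248 numbered and 97 otherwise named rows with at most 1 count in all were left out. GENCODE M21 (GRCm38), a later release than the tables', gave symbols for 42462 genes, positions, and a sequence for 97.95% of transcripts, of the deposited length for 88.21%.

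Counts were rounded and tested with SciPy 1.17.1 where both libraries together held at least 10, with TMM sizes from edgeR 4.0.16 (R 4.3.3) and 0.5 added for the fold. With 1 library per side neither edgeR's quasi-likelihood test nor DESeq2's can be run, and only the size factors of DESeq2 1.42.0 served, as an alternative. The test was tested on simulated data. Log2 TPM ratios have a pseudocount of 1, which understates the change of low genes. Clopper-Pearson intervals (exact, 95%) of the counts were carried over to TPM. GC content was weighted over transcripts by mean TPM, and its trends are lowess curves (fraction 0.2, statsmodels 0.14.6). Python was 3.11.15 with numpy 2.4.6.

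The members and lists were chosen with earlier results of these data known. Named are all 41 members, the 8 other pathway genes of highest mean TPM, the tissue-restricted paralogs, and transcripts of Pkm and Gapdh with at least 5% in a library. For other members a transcript is named only where the top one differs. Some genes that this rule names are not reported here. Names outside this rule were chosen after their values were seen.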

Additional observations from a re-analysis of the deposited data

How the results depend on the processing

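The count of members called higher, 22, was 22 to 28 under other scalings and count minimums and 15 with the GC trend removed. The 5 members called lower became 1 with library totals, 3 with totals without mitochondrial genes and their copies, 1 with the GC trend removed, and 0 by 2-fold on TPM, the last chosen after seeing the data. Of the other pathway genes, the 5 called lower became 0, 2 and 1 under the first 3 of these settings, and the 30 called higher became 10 with the GC trend removed. Over all genes 9555 calls became 3184 with the GC trend removed. The median log2 ratio of the cytosolic genes, 2.89, was 3.01 with a pseudocount of 0.1, 2.72 with 10, 1.96 with TPM without mitochondrial genes and their copies, 2.59 in TMM-scaled counts and 0.74 with the GC trend removed. That of the mitochondrial genes, 0.97, was 0.035 without mitochondrial genes and their copies, 0.42 in counts and 0.36 with the GC trend removed. For all genes these medians were 0.88 as reported, 0.11 without mitochondrial genes, 0.12 in counts and 0.0019 with the GC trend removed. The same gene led at 8 steps in counts against 4 in TPM. The M1 share of Pkm, a mean of 94.9%, was 85.9% with posterior mean shares, and 89.77% to 100% with 1 library left out. Of 50 alternative values of a paralog share, 44 lay within 1 SD of the main value. That SD comes from the same 2 libraries and is widest where they disagree, from 0.77 for Slc16a1 to 47.2 for Pdk1. The count therefore cannot show that the shares are stable. Beyond the alternatives' own construction the cause was not tested. No paired analysis was possible because there is 1 group. Depth limits Slc16a3, Pcx, Hk2, Pdk2 and Pfkl most, at 1 to 45 counts in replicate 1.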

Other observations

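Genes of glucose use outside the main route showed large ratios as well. All 5 measured genes of the pentose phosphate pathway, which makes NADPH and ribose, were called higher in replicate 2: G6pdx at 2.65 and 25.21 TPM, Pgls at 0.08 and 25.23, Pgd at 2.57 and 23.57, Tkt at 0.98 and 78.87 and Taldo1 at 3.92 and 124.87. Of all genes tested, 34.5% were called higher. The GC content of these 5 genes was 52.5% to 64.6%, and over all genes the median log2 TPM ratio was 1.60 at 50 to 55% and 3.03 at 55 to 60% GC content. Pgls rests on 3 counts in replicate 1. Of the glycerol phosphate shuttle, the cytosolic Gpd1 measured 0.94 and 57.66 TPM and was called higher, and the mitochondrial Gpd2 measured 33.18 and 35.77 TPM and was not called. The brain glycogen phosphorylase Pygb measured 8.20 and 76.34 TPM and was called higher. These genes were named after their values were seen.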
